A study of Saccharomyces cerevisiae with 24 samples.

Results

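The 60S subunit of the budding yeast ribosome is built from rRNA and many proteins, and most of these proteins are encoded by 2 genes, an A copy and a B copy, that descend from a whole-genome duplication. The genes described here are 29 such pairs, 58 genes in all, taken by systematic name from the 7127 features of the count table: the A and B copies of RPL1, RPL2, RPL4, RPL6 to RPL9, RPL11 to RPL24, RPL26, RPL27, RPL31 and RPL33 to RPL37. Those described most closely below are RPL8A (YHL033C, chrVIII:35255-36025) and RPL8B (YLL045C, chrXII:47859-48629), RPL9A (YGL147C, chrVII:227754-228329) and RPL9B (YNL067W, chrXIV:499681-500256), RPL15A (YLR029C, chrXII:201976-202590) and RPL15B (YMR121C, chrXIII:509734-510348), given by coding sequence on build R64; none of these 6 has an intron. The 58 were taken by name, a rule that uses no measured value, while these 6 are described closely because of how their ratios moved. All 58 were found and passed the filter on low counts.

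Ribosomal protein genes are among the most heavily transcribed genes of a growing yeast cell. They are switched on together by Rap1, Fhl1, Ifh1 and their partners in rich medium and are turned down together under heat and other stress. The copies of a pair make proteins that are identical or nearly so, but the copies differ in their upstream sequence, introns and untranslated regions. Many of them hold an intron, and they yield a large part of the spliced mRNA of a growing cell.

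The series measured mRNA in W303 yeast of mating type MATa, GAL+, with the alleles ade2-1, his3-11,15, can1-100, ura3-1 and trp1-1 and a leu2 allele, in an npl3-shuffle strain, in which NPL3 was supplied from plasmid pRS315. Npl3 resembles the SR proteins of other eukaryotes, binds mRNA as it is made, and has roles in splicing and mRNA export. The plasmid carried wild-type NPL3 or the mutant npl3-F162Y (first RNA recognition motif), npl3-P196D-A197D (linker) or npl3-F245I (second motif). Cultures in YPD were taken in mid-log phase at 30 °C, or after a shift to 37 °C for 1 hour, with 3 libraries for each of the 8 groups and 24 in all. All groups, the NPL3 controls included, therefore depend on a plasmid copy, and the labels do not say whether the libraries of a group came from separate transformants, so p-values rest on a spread between libraries that may be technical.

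Assigned counts (M, mega) had a median of 24.9 M over the libraries and lay between 15.8 M and 34.7 M. The a-cell genes MFA1, MFA2 and STE2 were present in every library and MF(ALPHA)1 and MF(ALPHA)2 stayed at or below 5.69 CPM (counts scaled to library size), as the MATa label states. The NPL3 transcript lay between 180.1 and 346 CPM in every library, which does not test the alleles, since these are base changes within the gene. Its level differed between groups by edgeR's test at an adjusted p under 0.05. At 30 °C it was 1.34-fold and 1.62-fold that of NPL3 cells in npl3-F162Y and npl3-P196D-A197D. In npl3-F245I it was 1.04-fold, which did not pass. At 37 °C it was 1.33-fold, 1.56-fold and 1.78-fold in the same order of mutants. In heat it rose in npl3-F245I alone, by 1.61-fold. In the NPL3 group at 37 °C the 58 genes took 4.41% of assigned counts in replicate 1, 3.83% in replicate 2 and 4.01% in replicate 3, and replicate 1 had the highest level of several genes below. In the sample titles, the 4 replicate 2 libraries at 37 °C are numbered in a different run of numbers from the other 20.

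The copies can be told apart only where their sequences differ, and these differences set which reads could be counted. Coding identity between A and B, from the RefSeq annotation of build R64, ran from 78.86% in RPL22 to 99.39% in RPL1. The protein was identical in 8 pairs and differed at 1 residue in 7. In RPL1, RPL4, RPL7, RPL11 and RPL35, fewer than 50% of the 50-base words of the coding sequence occur once in the genome, so most reads of that length from these genes match more than 1 place, and the split of their counts between copies is uncertain. The stretches below are, for 3 pairs whose ratios moved most, the 60 coding bases in which the copies differ most, with the differing bases in capitals. Chosen in this way, they overstate how far the copies differ over the whole coding sequence.
RPL8A (coding bases 370 to 429, chrVIII:35597-35656, minus strand): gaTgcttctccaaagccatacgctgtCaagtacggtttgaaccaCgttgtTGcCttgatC
RPL8B (chrXII:48201-48260, minus strand): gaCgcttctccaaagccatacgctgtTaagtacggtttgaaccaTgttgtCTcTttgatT
RPL9A (coding bases 514 to 573, chrVII:227757-227816, minus strand): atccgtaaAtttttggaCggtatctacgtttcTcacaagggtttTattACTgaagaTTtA
RPL9B (chrXIV:500194-500253, plus strand): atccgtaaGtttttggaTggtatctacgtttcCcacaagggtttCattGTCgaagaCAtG
RPL15A (coding bases 555 to 614, chrXII:201977-202036, minus strand): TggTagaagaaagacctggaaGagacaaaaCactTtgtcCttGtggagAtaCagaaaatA
RPL15B (chrXIII:509735-509794, minus strand): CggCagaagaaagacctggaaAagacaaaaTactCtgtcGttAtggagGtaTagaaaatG

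In these stretches RPL8 copies differ at 7 bases, and RPL9 and RPL15 copies at 10 each. Over the whole coding sequence the copies were 95.07% identical in RPL8, 93.75% in RPL9 and 93.17% in RPL15, and 93.07%, 85.96% and 88.16% of their 50-base words were unique. The sources used here do not state how reads that match both copies were treated. The row of the count table for alignments that are not unique held 0 in every library. Of 50 coding genes with no unique word in the genome, 15 had no count in any library and the highest count was 306, against 898 as the lowest count of any of the 58 genes.

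The sequence upstream of the start codons is shown for RPL8 and RPL9, and how alike the copies are there was not measured. The ratio of RPL8 changed most of the 29 in npl3-F162Y and npl3-F245I at 30 °C, and that of RPL9 changed most in heat. Bases 300 to 51 before the start codon are printed 5′ to 3′ on the strand of the gene. Capitals mark a match to a core of the Rap1 motif, searched on both strands.
RPL8A (chrVIII:36076-36325, minus strand): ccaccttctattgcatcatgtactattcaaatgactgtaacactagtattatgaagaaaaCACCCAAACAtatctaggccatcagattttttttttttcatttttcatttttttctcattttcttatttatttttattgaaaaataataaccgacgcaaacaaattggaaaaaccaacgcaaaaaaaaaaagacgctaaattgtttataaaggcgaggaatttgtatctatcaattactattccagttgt
RPL8B (chrXII:48680-48929, minus strand): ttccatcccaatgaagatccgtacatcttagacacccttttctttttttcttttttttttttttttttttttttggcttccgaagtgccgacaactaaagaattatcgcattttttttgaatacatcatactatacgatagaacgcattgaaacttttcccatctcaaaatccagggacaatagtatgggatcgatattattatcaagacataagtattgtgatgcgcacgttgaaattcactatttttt
RPL9A (chrVII:228380-228629, minus strand): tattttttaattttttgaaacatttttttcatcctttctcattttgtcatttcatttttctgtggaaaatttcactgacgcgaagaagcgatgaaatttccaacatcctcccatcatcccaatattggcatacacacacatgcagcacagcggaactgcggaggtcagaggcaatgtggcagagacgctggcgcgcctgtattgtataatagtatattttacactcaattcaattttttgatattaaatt
RPL9B (chrXIV:499381-499630, plus strand): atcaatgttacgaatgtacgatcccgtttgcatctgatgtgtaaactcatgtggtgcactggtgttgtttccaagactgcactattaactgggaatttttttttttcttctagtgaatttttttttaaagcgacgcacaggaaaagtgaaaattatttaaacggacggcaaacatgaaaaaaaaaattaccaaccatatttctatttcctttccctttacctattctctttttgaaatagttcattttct

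RPL8A holds the Rap1 core once in this window and RPL8B, RPL9A and RPL9B do not. Within 500 bases of the start codon, 23 of the 58 genes (39.66%) held it, against 5.99% of 6006 windows of all coding genes. GACGC, searched for Fhl1, was found in 24 of 58 (41.38%) and in 30.42% of all windows, and AGGGG, searched for Msn2 and Msn4, in 15 (25.86%) and 34.08%. The Abf1 motif was found in 24 (41.38%) and 46.1% of all windows, the Hsf1 motif in 2 (3.45%) and 1.48%, and AAAATTTT in 8 (13.79%) and 12.44%. All motifs were searched on both strands and may overlap, and a match describes letters and not binding.

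The copies of each pair were alike in having introns or not, while the first 6 intron bases differed between copies in RPL20 and RPL22. In 21 pairs both copies have an intron and in 8 neither does, with 44 introns in 42 genes and lengths from 147 to 561 bases. The 5′ splice site was GTATGT in 37 introns, the usual yeast form, and another hexamer in 7, and the branch point word TACTAAC was found in 41. The 30 bases around the 5′ splice site are shown where the hexamer departs from the usual form, with RPL20B and RPL7 for comparison, because several of these genes recur among the largest changes. The first 6 intron bases are in capitals.
RPL22A (chrXII:263194-263223, plus strand): atggccccaaacGTATGAtactttaaaagg
RPL22B (chrVI:64903-64932, minus strand): atggctccaaacGTACGTtaattttcgttc
RPL20A (chrXIII:754202-754231, minus strand): agtgcggaaaaaGTGAGTaaatacctacta
RPL20B (chrXV:901176-901205, minus strand): agcaaagaaaaaGTATGTaatagaatgtat
RPL27A (chrVIII:126540-126569, plus strand): ctggtaaagttgGTACGTatcattttcagt
RPL27B (chrIV:1401789-1401818, plus strand): caggtaaagttgGTACGTaaatttaacaga
RPL16A (chrIX:99368-99397, minus strand): ttgtcattgatgGTACGTaagattttgcac
RPL16B (chrXIV:494956-494985, minus strand): ttgttattgatgGTACGTaaaaaatttcta
RPL7A (chrVII:365968-365997, minus strand): aatggccgctgaGTATGTatacgaaatcgt
RPL7B (chrXVI:173151-173180, plus strand): aatgtccactgaGTATGTcaaaaactacaa

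The level of the copies was compared per length, as CPM per kb of coding sequence. In NPL3 cells at 30 °C, the A copy was the higher one in 14 pairs and the B copy in 15, and A copies together took 50.88% ± 0.292 (SD, n = 3) of the counts of the 58 genes. Single copies ranged from 103.1 (RPL15B) to 5072 CPM per kb (RPL36B), with a median of 2167. The sum of both copies ranged from 2042 in RPL4 to 6453 in RPL36, a 3.16-fold range. Of the coding words, 27.31% are unique in RPL4 and 86.97% in RPL36. The other pairs named above for few unique words also had low sums. These were 2937 in RPL11, 3214 in RPL1, 3276 in RPL7 and 3516 in RPL35, against a median of 4471. RPL6 (2785) and RPL22 (3308), with 100% of words unique, lay as low. Whether reads that match both copies are missing from these sums was not tested.

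**Figure D1:**
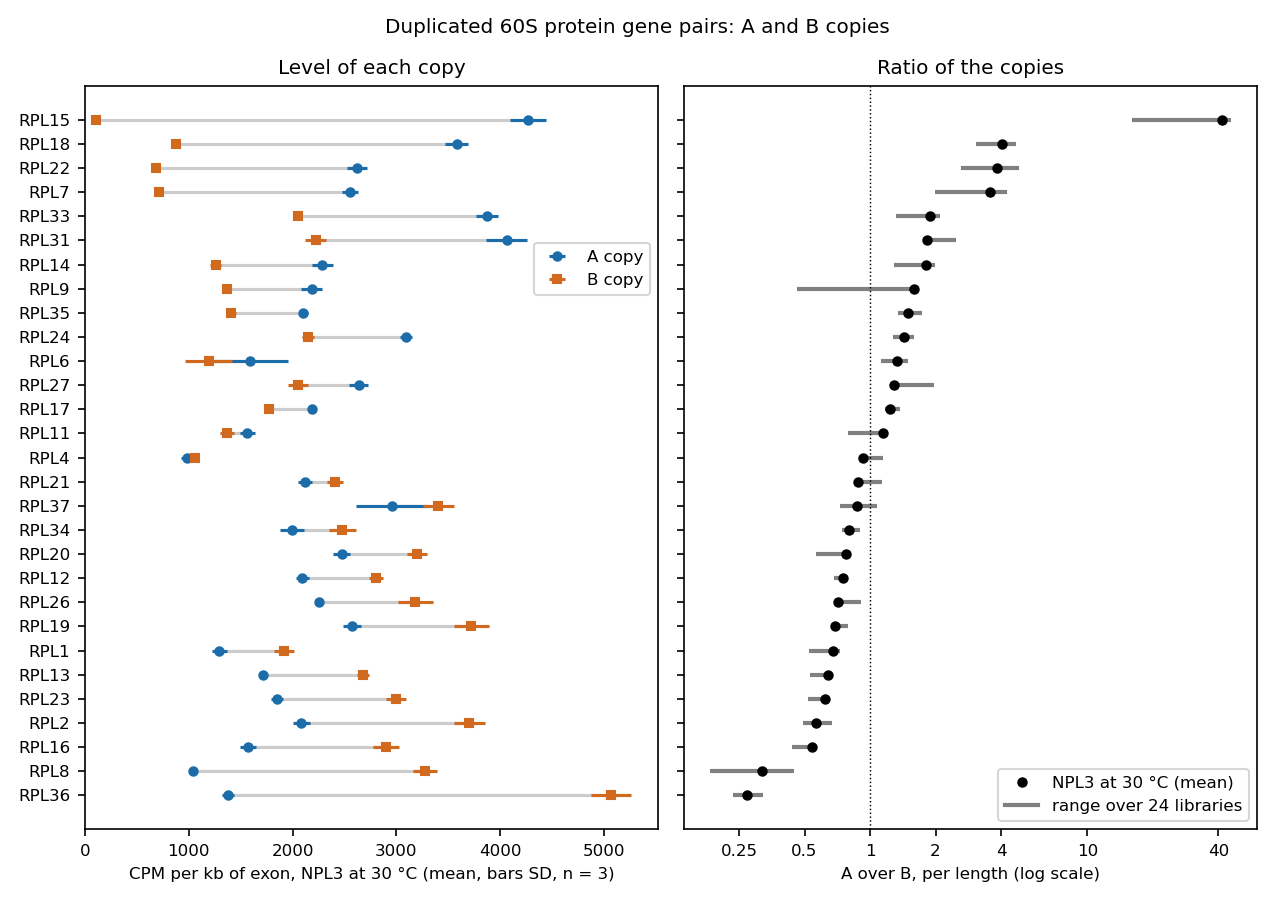
Left, the level of the A copy (circles) and the B copy (squares) of each pair in NPL3 at 30 °C, in CPM per kb (mean and SD, n = 3); right, A over B per length on a log axis, with the NPL3 mean at 30 °C (points) and the range over 24 libraries (grey lines). RPL15 stands at 41.6, far to the right of the other pairs, and the ranges of RPL4, RPL9, RPL11, RPL21 and RPL37 cross 1. The ratios drawn are without the added 0.5 CPM, with which RPL15 is 41.3.

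Inequality of 2 times or more was confined to few pairs. In 15 pairs the higher copy was under 1.5 times the lower, in 8 it was 1.5 to 2 times, and in 6 it was 2 times or more. These 6 were RPL15 (A over B 41.3 ± 3.61, SD, n = 3), RPL18 (4.06 ± 0.0413), RPL22 (3.81 ± 0.0591), RPL7 (3.56 ± 0.0419), RPL36 (B over A 3.68 ± 0.260) and RPL8 (B over A 3.14 ± 0.126). The most even pairs were RPL4, RPL21, RPL11 and RPL37, with B over A of 1.07 in RPL4 and 1.13 in RPL21. The order of the copies was the same in all 24 libraries in 24 pairs, 12 with A and 12 with B above. It changed in RPL4, RPL9, RPL11, RPL21 and RPL37, of which only RPL9 had lain more than 1.5-fold from even.

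Rpl15 is needed for 60S assembly, and nearly all of its mRNA came from the A copy. RPL15A stood at 2711.3, 2508.4 and 2660.7 CPM in the NPL3 libraries at 30 °C and RPL15B at 59.4, 61.9 and 68.9 CPM. RPL36B was the highest of the 58 per length. B over A of RPL36, which encodes a solvent-side protein, was 3.97, 3.49 and 3.57 in the same libraries.

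At 30 °C the genes of the 29 pairs were lower in all 3 mutants than in NPL3. In npl3-F162Y all 58 passed the test as lower (edgeR's quasi-likelihood test, Benjamini-Hochberg adjusted p under 0.05), with a median log2 change of -0.46, where 38.6% of 6518 genes tested were called lower and 29.8% higher and the median of all genes was -0.04. In npl3-P196D-A197D 55 fell, none rose and 3 (RPL6A, RPL15B and RPL37A) did not pass, with a median of -0.31 and 31.7% of all genes called lower. In npl3-F245I 57 fell and RPL6A did not pass, with a median of -0.33 and 33.3% of all genes called lower. RPL6A stood at 629.4, 914.2 and 993.2 CPM in the NPL3 libraries at 30 °C and RPL37A at 684.3, 822.2 and 862.4, replicate 1 being the lowest for both. Without that library RPL6A passed as lower, at -0.34 in npl3-F245I and -0.32 in npl3-P196D-A197D, and so did RPL37A, at -0.23 in npl3-P196D-A197D. Without NPL3 replicate 3, RPL6A in npl3-F162Y (-0.15), RPL6B in npl3-P196D-A197D (-0.16) and RPL37A in npl3-F245I (-0.18) did not pass. Without NPL3 replicate 2, RPL6A in npl3-F162Y (-0.22) and RPL6B in npl3-P196D-A197D (-0.20) did not pass. These 3 comparisons share the NPL3 libraries. The 58 genes took 5.87% ± 0.126 of assigned counts in NPL3, 4.62% ± 0.0794 in npl3-F162Y, 4.96% ± 0.0318 in the linker mutant and 4.94% ± 0.0284 in npl3-F245I (SD, n = 3), with no overlap between NPL3 and any mutant. CPM is a share of each library, so these values do not show whether a cell held less of these mRNAs in all.

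The genes were also grouped by the places their proteins take in the subunit, with no test between the groups. For the 16 genes of the subunit interface and the stalks (RPL1, RPL2, RPL9, RPL11, RPL12, RPL21, RPL23, RPL24), all fell in each mutant, with medians of -0.48, -0.33 and -0.32 in npl3-F162Y, npl3-P196D-A197D and npl3-F245I. For the 16 genes at the exit tunnel (RPL4, RPL17, RPL19, RPL22, RPL26, RPL31, RPL35, RPL37), 16, 15 and 16 fell, with medians of -0.46, -0.29 and -0.36. For the 26 genes of the solvent side, 26, 24 and 25 fell, with medians of -0.42, -0.29 and -0.31. The median change in the 3 mutants was -0.45, -0.33 and -0.34 in A copies and -0.47, -0.26 and -0.33 in B copies, a difference that was not tested.

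RPL8A fell most of the 58 in npl3-F162Y and npl3-F245I. Rpl8 acts in the processing of 27S pre-rRNA. RPL8A stood at 833.5, 798.4 and 780.8 CPM in NPL3, at 370.3, 387.7 and 359.9 in npl3-F162Y, at 575.3, 539.7 and 567.5 in npl3-P196D-A197D and at 417.3, 431.0 and 451.9 in npl3-F245I. The 4 groups did not overlap, and npl3-F162Y was the lowest. RPL8A was 2.16-fold lower in npl3-F162Y (log2 change -1.11, SE 0.0618, edgeR adjusted p = 1.724e-13), 1.43-fold lower in npl3-P196D-A197D and 1.86-fold lower in npl3-F245I. Its partner RPL8B, the higher copy, was 1.27-fold, 1.18-fold and 1.22-fold lower.

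Other large falls in the mutants at 30 °C included those of the B copies named here. RPL27B fell by 0.82, 0.54 and 0.66 on the log2 scale in npl3-F162Y, npl3-P196D-A197D and npl3-F245I, RPL22B by 0.80, 0.49 and 0.69, RPL21B by 0.77, 0.51 and 0.66, and RPL31B by 0.77, 0.52 and 0.58. Rpl22 and Rpl31 lie near the end of the exit tunnel and Rpl27 on the solvent side. At the other end, RPL11B, one of the genes for the 5S rRNA partner Rpl11, fell by 0.21, 0.19 and 0.19. RPL15B fell by 0.24 in npl3-F162Y and 0.20 in npl3-F245I and had a change of -0.05 in npl3-P196D-A197D that did not pass. Without NPL3 replicate 3 at 30 °C the change of RPL15B in npl3-F245I was -0.14 and did not pass.

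**Figure D2:**
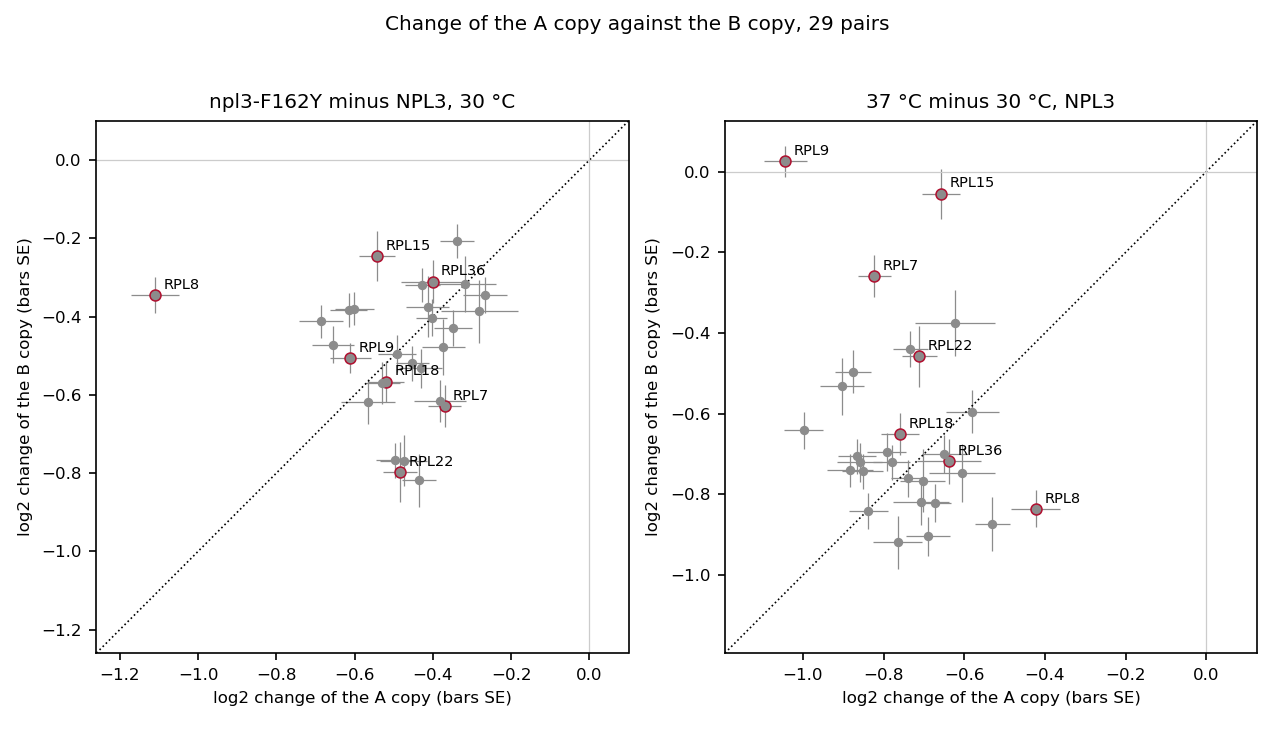
The log2 change of the B copy against that of the A copy for 29 pairs (bars, SE), in npl3-F162Y against NPL3 at 30 °C (left) and at 37 °C against 30 °C in NPL3 (right); the dotted line marks equal changes and the named points are RPL9 and the 6 most unequal pairs. RPL8A at -1.11 lies far from the line on the left, and RPL9 and RPL15 lie far above it on the right.

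Genes with an unusual 5′ splice site had lower medians at 30 °C than those with GTATGT alone, a description on groups drawn up after values had been seen. In npl3-F162Y the median log2 change was -0.62 in the 7 genes with another hexamer, -0.47 in 35 with GTATGT and -0.43 in 16 without an intron. In npl3-P196D-A197D these medians were -0.36, -0.30 and -0.32, and in npl3-F245I -0.48, -0.33 and -0.30. The ranges overlapped widely: within the 7, RPL27B was at -0.82 and RPL16B at -0.41 in npl3-F162Y, and both carry GTACGT. The gene that fell most, RPL8A, has no intron.

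The ratio of A to B within each library was tested with limma on log2(A/B) over 689 pairs of paralogues tested in the genome. In npl3-F162Y at 30 °C the ratio changed in 20 of the 29 pairs, against 73.1% of all pairs, in npl3-P196D-A197D in 19 against 64.7%, and in npl3-F245I in 21 against 65.3%. Shares of this size lie near the background and say nothing particular of the 29 pairs. The changes were small: the median absolute log2 change of the ratio was 0.11, 0.13 and 0.13, against 0.29, 0.22 and 0.24 over all pairs. Among 415 other pairs with both copies at a mean of at least 50 CPM it was 0.26, 0.20 and 0.22.

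RPL8 had the largest shift of ratio among the 29 in npl3-F162Y and npl3-F245I. B over A per length was 3.11, 3.04 and 3.28 in the NPL3 libraries at 30 °C, 5.32, 5.23 and 5.46 in npl3-F162Y, 4.89, 4.89 and 4.58 in npl3-F245I, and 3.70, 3.94 and 3.79 in npl3-P196D-A197D. No mutant overlapped NPL3. The log2 change of A over B was -0.76 (SE 0.0395, limma adjusted p = 7.245e-14), -0.28 and -0.61 in the order npl3-F162Y, npl3-P196D-A197D, npl3-F245I.

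RPL22 and RPL27 moved towards the A copy in each mutant at 30 °C. Rpl22 is not essential in yeast, and Rpl22 protein is known to bind the intron of RPL22B pre-mRNA and limit its splicing. A over B of RPL22 was 3.82, 3.75 and 3.87 in NPL3 and 4.82, 4.67 and 4.72 in npl3-F162Y, with log2 changes of 0.31 (SE 0.0573, limma adjusted p = 4.365e-05), 0.22 and 0.31 in the 3 mutants. For RPL27, A over B was 1.26, 1.30 and 1.29 in NPL3 and 1.69, 1.69 and 1.64 in npl3-F162Y, with log2 changes of 0.38, 0.21 and 0.36, and RPL31, RPL21 and RPL4 also moved towards A in each mutant at 30 °C. RPL15, RPL20, RPL16, RPL2 and RPL13 moved towards B in each mutant. RPL11 did so too, by -0.13, -0.17 and -0.07, and RPL1 and RPL6 moved towards A in each. Among the 6 most unequal pairs, the lower copy lost ground and passed in RPL7, RPL8 and RPL22 in npl3-F162Y and npl3-F245I and in RPL8, RPL18, RPL22 and RPL36 in npl3-P196D-A197D, and it gained and passed in RPL15 in each mutant. Several of the smaller changes of ratio did not pass with 1 library left out. In npl3-F245I these were RPL15, at -0.13 without NPL3 replicate 1 and -0.15 without its own replicate 1, RPL11 without either of the same libraries, and RPL1 without replicate 2 or 3 of NPL3 or of the mutant. In npl3-P196D-A197D they were RPL1 without NPL3 replicate 2 or 3 or its own replicate 2, and RPL36 without replicate 2 or 3 of NPL3 or of the mutant, and in npl3-F162Y RPL6 without NPL3 replicate 1. The lower copy was set from the NPL3 libraries at 30 °C, which are also part of these comparisons.

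**Figure D3:**
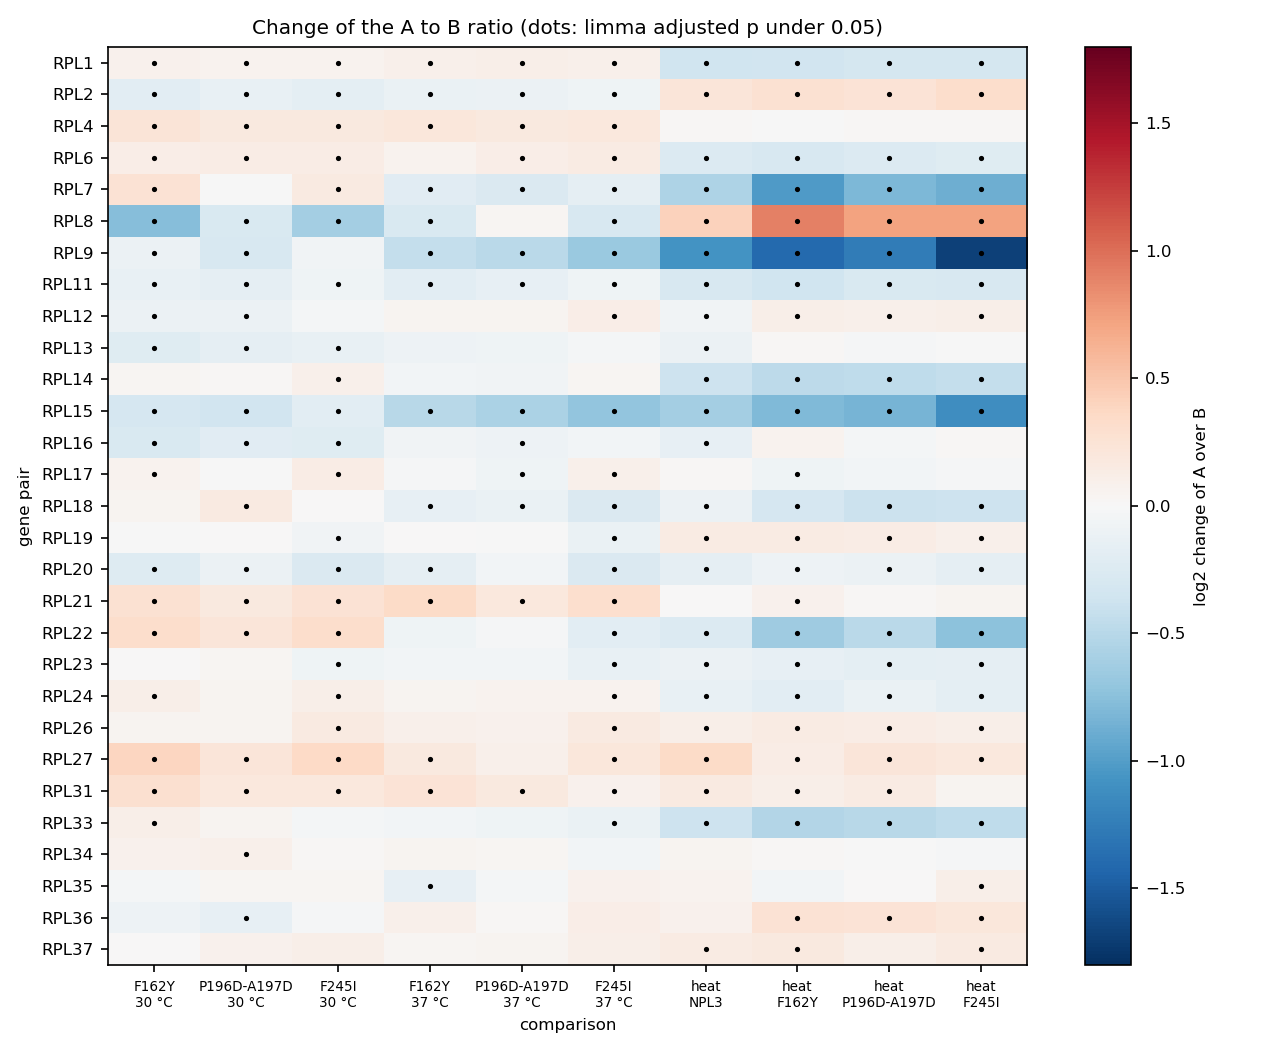
The log2 change of A over B for 29 pairs (rows) in the mutants against NPL3 at 30 °C and 37 °C and in heat in each strain (columns), red for a shift towards A and blue towards B; dots mark limma adjusted p under 0.05. RPL8 is blue in npl3-F162Y at 30 °C (-0.76) and red in heat, and RPL9 is the darkest blue in heat (-1.07 to -1.69).

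The shift to 37 °C lowered the genes of the pairs in every strain. In NPL3 56 of 58 fell with a median log2 change of -0.72, where 32.9% of all genes fell and 34.1% rose. In npl3-F162Y 53 fell and 3 rose (median -0.70; 27% and 34.4% of all genes fell and rose). In npl3-P196D-A197D 55 fell and 2 rose (median -0.71; 28.5% and 33.4%), and in npl3-F245I 56 fell and 2 rose (median -0.94; 30.8% and 37.8%). The 58 genes took 4.09% ± 0.297 of assigned counts in NPL3 at 37 °C, 3.14% ± 0.0707 in npl3-F162Y, 3.41% ± 0.125 in the linker mutant and 2.96% ± 0.0518 in npl3-F245I (SD, n = 3).

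Against NPL3 at 37 °C the mutants were lower again. In npl3-F162Y 57 fell (median -0.40; 30.8% of all genes fell) and in npl3-F245I 57 fell (median -0.53; 26.5%), RPL15B being the gene that did not pass in either. In npl3-P196D-A197D 55 fell (median -0.27; 22.4%) and RPL15B rose, where 21.3% of all genes rose; with a fit of only the groups compared 36 passed. RPL9A, a gene for the interface protein Rpl9, was lowered most of the 58 in each, by 0.75, 0.62 and 0.90 on the log2 scale in npl3-F162Y, npl3-P196D-A197D and npl3-F245I. RPL21B fell by 0.70, 0.45 and 0.89 and RPL8A by 0.66, 0.28 and 0.84. Without NPL3 replicate 1 at 37 °C the change of RPL8A in npl3-P196D-A197D was -0.17, which passed.

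The copies that rose or did not fall in heat came from a handful of pairs. RPL15B rose in the 3 mutants, by 0.23, 0.26 and 0.28 (log2) in npl3-F162Y, npl3-P196D-A197D and npl3-F245I, and RPL9B by 0.22, 0.11 and 0.15, while in NPL3 their changes were -0.05 and 0.03 and did not pass. RPL7B rose by 0.15 in npl3-F162Y, had a change of -0.10 in npl3-P196D-A197D that did not pass, and fell by 0.26 in NPL3 and 0.20 in npl3-F245I. RPL8A and RPL22B had changes of 0.03 and -0.06 in npl3-F162Y, neither of which passed. The rise of RPL7B was 0.14 without npl3-F162Y replicate 3 at 30 °C and that of RPL9B in npl3-P196D-A197D was 0.098 without its replicate 1 at 30 °C and 0.086 without its replicate 1 at 37 °C, and none of these passed. The partners of these copies fell in every strain, RPL9A by 1.04 to 1.53, RPL15A by 0.57 to 0.84, RPL7A by 0.82 to 1.08, RPL8B by 0.84 to 1.09 and RPL22A by 0.69 to 0.97.

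RPL9 was the pair whose copies parted most in heat. RPL9A stood at 1279.0, 1192.0 and 1300.4 CPM in NPL3 at 30 °C and at 672.4, 601.3 and 556.5 at 37 °C. RPL9B stood at 786.8, 763.3 and 812.9 CPM at 30 °C and at 834.3, 801.5 and 769.8 at 37 °C, so that the A copy was the higher one at 30 °C and the B copy at 37 °C. In npl3-F245I RPL9A went from 945.7, 937.7 and 954.3 to 322.2, 340.7 and 317.0 CPM, a 2.90-fold fall, the largest heat change of any of the 58 genes in any strain, and RPL9B from 616.4, 605.6 and 629.8 to 694.9, 687.3 and 678.1.

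As a ratio, A over B of RPL9 per length was 1.63, 1.56 and 1.60 in NPL3 at 30 °C and 0.81, 0.75 and 0.72 at 37 °C. It was 1.49, 1.48 and 1.48 against 0.56, 0.58 and 0.54 in npl3-F162Y, 1.31, 1.29 and 1.30 against 0.54, 0.54 and 0.55 in npl3-P196D-A197D, and 1.53, 1.55 and 1.51 against 0.46, 0.50 and 0.47 in npl3-F245I. The order of the copies turned in all 12 libraries at 37 °C. The log2 change of A over B in heat was -1.07 in NPL3 (SE 0.0332, limma adjusted p = 1.48e-17), -1.40 in npl3-F162Y, -1.26 in npl3-P196D-A197D and -1.69 in npl3-F245I.

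In RPL15 the A copy fell in heat and the B copy did not. RPL15B was at 60.3, 57.8 and 64.9 CPM in NPL3 at 37 °C, which overlaps the range at 30 °C given above. In npl3-P196D-A197D RPL15B went from 60.02, 63.6 and 60.01 to 77.5, 69.0 and 73.9 CPM, with no overlap, and RPL15A from 1985.4, 2045.7 and 1997.0 to 1408.3, 1302.2 and 1331.8. A over B fell from 45.3, 40.2 and 38.4 to 30.1, 26.9 and 24.5 in NPL3, and from 33.8, 37.5 and 36.6 to 16.6, 17.1 and 15.9 in npl3-F245I, the lowest of the 24 libraries. The log2 changes in heat were -0.61 in NPL3 (SE 0.0707, limma adjusted p = 7.326e-08), -0.80 in npl3-F162Y, -0.84 in npl3-P196D-A197D and -1.12 in npl3-F245I.

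RPL7, RPL8 and RPL22 moved the same way with respect to their lower copy. The split of RPL7 counts between its copies is uncertain, as stated above. For RPL7, whose protein acts with Rpl8 in early 27S pre-rRNA processing, A over B was 3.60, 3.52 and 3.56 at 30 °C and 2.27, 2.51 and 2.48 at 37 °C in NPL3, and 4.25, 4.27 and 4.27 against 2.14, 2.14 and 2.03 in npl3-F162Y. For RPL8, B over A was 3.11, 3.04 and 3.28 against 2.24, 2.36 and 2.505 in NPL3, and 5.32, 5.23 and 5.46 against 2.84, 2.80 and 2.93 in npl3-F162Y. For RPL22, A over B was 3.82, 3.75 and 3.87 against 2.98, 3.39 and 3.28 in NPL3, and 4.82, 4.67 and 4.72 against 2.82, 3.36 and 3.00 in npl3-F162Y. In none of these did the libraries at 37 °C overlap those at 30 °C of the same strain.

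**Figure D4:**
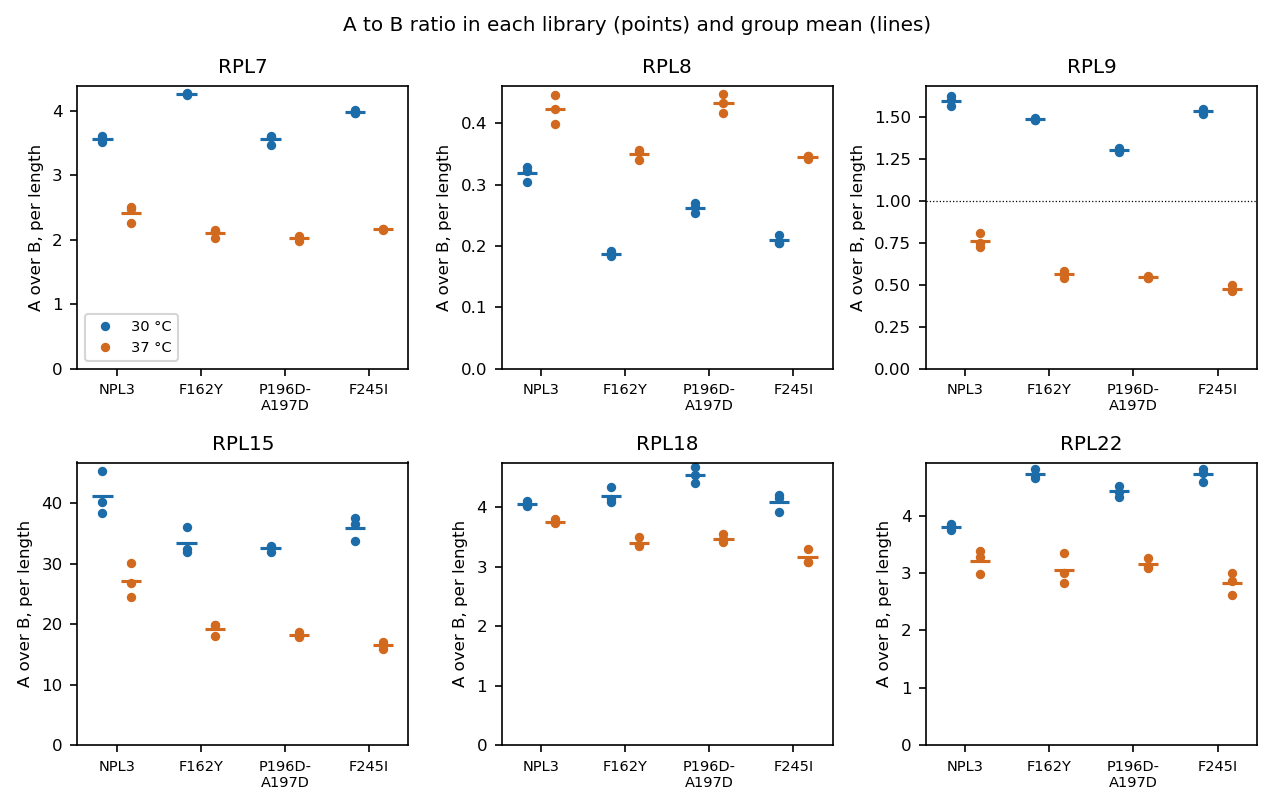
A over B per length in each library (points) with group means (lines) at 30 °C (blue) and 37 °C (orange) for 6 pairs in NPL3 and the 3 mutants; in the RPL9 panel the dotted line marks equal levels. RPL9 lies above 1 at 30 °C and below 1 at 37 °C in every strain, and RPL8 is the one pair of the 6 whose A over B is higher at 37 °C.

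In all 6 of the most unequal pairs the lower copy gained on its partner in heat in NPL3 and in each mutant, with a median log2 gain of 0.33 in NPL3, 0.72 in npl3-F162Y, 0.60 in npl3-P196D-A197D and 0.73 in npl3-F245I. The gain passed limma's test in 5 of the 6 in NPL3 (not in RPL36, whose A over B changed by 0.08) and in 6 of 6 in each mutant. Over all 29 pairs the lower copy gained in 19, 23, 20 and 21 in NPL3, npl3-F162Y, npl3-P196D-A197D and npl3-F245I, and 15, 19, 16 and 17 of these gains passed against 8, 5, 5 and 5 losses that passed. The lower copy was set from the NPL3 libraries at 30 °C, which enter the heat comparison of NPL3 but not those of the mutants, and levels that lie close together can exchange order by their spread. Gains of the lower copy were not counted over the other paralogue pairs. Whether they are particular to these pairs was therefore not tested.

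RPL1 and RPL27 moved the other way, though the split of RPL1 counts between its copies is uncertain, as stated above. RPL1, whose protein forms a stalk, moved towards its higher B copy in heat by 0.36, 0.35, 0.32 and 0.32 (log2) in NPL3, npl3-F162Y, npl3-P196D-A197D and npl3-F245I, and RPL27 moved towards its higher A copy by 0.35, 0.14, 0.22 and 0.19. RPL33 and RPL14, whose proteins lie on the solvent side, moved, like the 6, away from their higher copy, which is A, RPL33 by -0.37, -0.53, -0.49 and -0.45 and RPL14 by -0.38, -0.47, -0.46 and -0.43. RPL4 and RPL34 had heat changes of ratio between -0.02 and 0.05 that did not pass in any strain. In all, the ratio changed in 23, 24, 21 and 22 of 29 pairs in heat in NPL3, npl3-F162Y, npl3-P196D-A197D and npl3-F245I, where 73.9%, 70%, 69.8% and 73.4% of all paralogue pairs did, so the number of changed pairs was near the background here too. The median absolute change in NPL3 was 0.15, against 0.31 over all pairs.

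At 37 °C the ratio differed between mutant and NPL3 in 14 pairs in npl3-F162Y, 13 in npl3-P196D-A197D and 22 in npl3-F245I, where 64.7%, 50.5% and 60.8% of all pairs did. RPL15 and RPL9 lay furthest towards B in each, RPL15 by -0.50, -0.57 and -0.71 and RPL9 by -0.43, -0.48 and -0.67. RPL22, which had moved towards A in the mutants at 30 °C, had changes of -0.07 and -0.02 in npl3-F162Y and npl3-P196D-A197D at 37 °C that did not pass and moved towards B by -0.19 in npl3-F245I, which did not pass without NPL3 replicate 2 (-0.15) or npl3-F245I replicate 3 (-0.13) at 37 °C. RPL8 was still lower in A over B in npl3-F162Y (-0.27) and npl3-F245I (-0.29), and its change of 0.03 in npl3-P196D-A197D did not pass. Over the 8 groups the ratio differed in all 29 pairs by limma's F-test, as in 97.7% of all pairs tested.

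The difference between the heat responses of mutant and NPL3 was tested as an interaction, with the NPL3 libraries shared by the 3 tests. In npl3-F162Y 6 of the 58 genes had a smaller fall or a rise and none a larger fall, where 11.8% and 8.68% of all genes were called higher and lower. The 6 were RPL8A (0.45, SE 0.0864, edgeR adjusted p = 0.0005847), RPL7B (0.41), RPL22B (0.40), RPL15B (0.29), RPL18B (0.28) and RPL9B (0.20). Each was the lower copy of its pair in NPL3 at 30 °C, but the libraries that set this order also enter the interaction. The difference for RPL15B did not pass without NPL3 replicate 3 at 30 °C (0.22), NPL3 replicate 2 at 37 °C (0.25), npl3-F162Y replicate 2 at 30 °C (0.25) or npl3-F162Y replicate 3 at 37 °C (0.23). In npl3-P196D-A197D they were RPL18B (0.34) and RPL15B (0.31), where 5.57% of all genes were called higher and 5.08% lower. With all libraries, the counts in both mutants lay under the share of all genes called higher and say nothing particular of the 58. Without NPL3 replicate 1 at 37 °C these counts were 20 and 9. In npl3-P196D-A197D 1 gene passed without NPL3 replicate 2 at 37 °C, NPL3 replicate 3 at 30 °C, replicate 1 of the mutant at 37 °C, or its replicate 1 or 3 at 30 °C; RPL15B was the gene that no longer passed, at 0.25 to 0.30.

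In npl3-F245I 28 genes fell more in heat than in NPL3 and 1, RPL15B (0.34), was called higher, where 12.4% and 16.5% of all genes were called lower and higher. The fall was larger by 0.49 in RPL9A (SE 0.0743, edgeR adjusted p = 2.453e-05), by 0.40 in RPL12B, whose protein forms the base of the P stalk, and by 0.35 in RPL6B. RPL6B stood at 495.7, 686.4 and 718.3 CPM in NPL3 at 30 °C, and without replicate 1, the lowest, its difference was -0.20, which passed. It was -0.31 and did not pass without NPL3 replicate 1 at 37 °C, and -0.33 and did not pass without npl3-F245I replicate 3 at 30 °C. The median difference over the 58 genes was -0.18. With a fit of only the groups compared the count was 17.

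For the ratio, the interaction passed in 10, 6 and 11 of 29 pairs in npl3-F162Y, npl3-P196D-A197D and npl3-F245I, where 34.3%, 21.2% and 39.5% of all pairs did, and in 7 in npl3-F245I without its replicate 1 at 30 °C. RPL8 moved further towards A in heat than in NPL3 by 0.49, 0.31 and 0.31, and RPL12 by 0.16, 0.15 and 0.16. RPL7 moved further towards B by -0.46, -0.26 and -0.32, RPL9 by -0.33, -0.19 and -0.62, RPL22 by -0.39, -0.24 and -0.49 and RPL18 by -0.19, -0.27 and -0.27, and these 6 pairs passed in each mutant. RPL22 in npl3-P196D-A197D did not pass when any 1 of 9 of the 12 libraries compared was left out. The RPL15 difference of -0.52 passed in npl3-F245I (limma adjusted p = 0.0002431), and its differences of -0.20 and -0.23 in npl3-F162Y and npl3-P196D-A197D did not.

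The sum of both copies changed more evenly from pair to pair than single copies did. In heat in NPL3 the log2 changes of the 29 sums had an SD of 0.0833 around a median of -0.73, with RPL21 (-0.84) and RPL6 (-0.51), both of whose copies were lowest in NPL3 replicate 1 at 30 °C, at the ends, while the 58 single copies had an SD of 0.199 and ran from -1.04 to 0.03. In npl3-F245I the SD was 0.118 for sums and 0.305 for copies, and in npl3-F162Y against NPL3 at 30 °C 0.0968 and 0.162. A sum follows the higher copy of each pair, and summing lowers the spread wherever copies vary independently, so the smaller SD is a description. RPL21 had the lowest sum of the 29 in each of the 6 comparisons of a mutant with NPL3, from -0.74 in npl3-F245I at 37 °C to -0.35 in npl3-P196D-A197D at 37 °C.

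**Figure D5:**
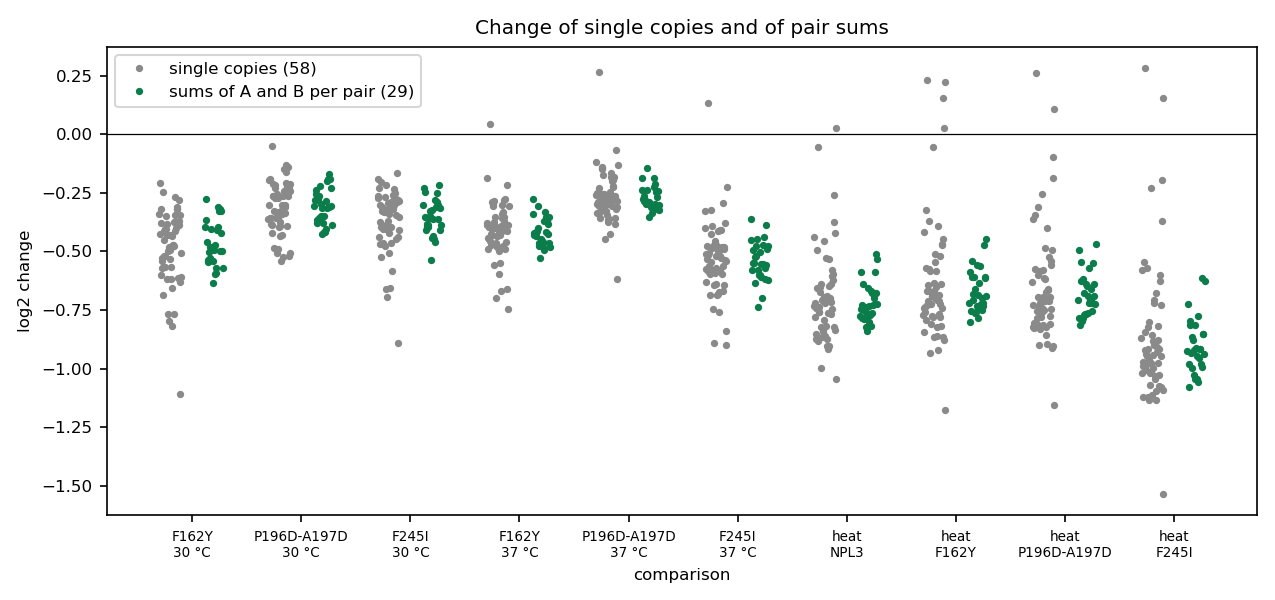
The log2 change of 58 single copies (grey) and of the summed CPM per kb of A and B in 29 pairs (green), for the mutants against NPL3 at 30 °C and 37 °C and for heat in each strain. The sums stay below 0 in all 10 comparisons, while a few copies rise in heat, up to 0.28 in npl3-F245I.

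Other genes for ribosomal proteins moved the same way. Of 11 single-copy 60S genes, 10, 9 and 7 fell at 30 °C in npl3-F162Y, npl3-P196D-A197D and npl3-F245I, with medians of -0.33, -0.25 and -0.24, and 11 fell in heat in each strain. Of 12 further genes for duplicated 60S proteins, 11, 10 and 11 fell at 30 °C (medians -0.40, -0.29 and -0.26) and all 12 in heat in each strain. Of 56 genes for the small subunit, 55, 51 and 53 fell at 30 °C (medians -0.48, -0.33 and -0.36). Levels of the single-copy genes thus fell at 30 °C by medians that were smaller than those of the 58 in each mutant, a difference that was not tested.

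Transcripts of 8 regulators of ribosomal protein genes went both ways at 30 °C. RAP1, the DNA-binding activator of these genes, fell by 0.49, 0.40 and 0.36 (log2) in npl3-F162Y, npl3-P196D-A197D and npl3-F245I, HMO1, an HMG-box protein at their promoters, by 0.55, 0.46 and 0.46, SFP1, an activator that answers to nutrients, by 0.52, 0.31 and 0.32, and ABF1 by 0.35, 0.27 and 0.29. IFH1, the coactivator, rose by 0.85, 0.44 and 0.85, and CRF1, the corepressor that competes with it in some strains, by 0.86, 0.38 and 0.57. FHL1, which recruits both, rose by 0.22 in npl3-F162Y and 0.18 in npl3-F245I and had a change of 0.02 in npl3-P196D-A197D that did not pass. In heat RAP1 fell in every strain, by 0.53 in NPL3 and 0.29 in npl3-F245I, and CRF1 rose in every strain, by 1.03 in NPL3 and 0.55 in npl3-F245I. In NPL3 IFH1 also rose, by 0.27, with replicate 3 at 37 °C (126.2 CPM) below all 3 libraries at 30 °C (133.7 to 150.9 CPM), and HMO1, SFP1 and ABF1 fell by 0.44, 0.26 and 0.15. In npl3-F245I FHL1, ABF1 and SFP1 also rose, by 0.44, 0.37 and 0.18. These are mRNA levels, and protein levels or binding were not measured here.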

How the data were processed

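Per the labels, total RNA was extracted with Trizol and made into stranded Illumina TruSeq mRNA libraries. Per the submitters' processing notes, the authors used FastQC, STAR 2.7.2a, HTSeq and build R64. The deposited table holds whole-number counts per gene. The strand setting and the handling of reads that match several places are not given in the sources used here. Rows that name no gene were left out of library sizes and tests: per library, 4.39 to 6.51% of reads fell in no feature and 0.787 to 1.01% were ambiguous.

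Counts were fitted in R 4.3.3 with edgeR 4.0.16 (filterByExpr, TMM factors, 1 mean per group over 24 libraries, robust quasi-likelihood F-test), and p-values were adjusted by Benjamini-Hochberg over 6518 genes at 0.05 in each of 13 comparisons. Residual degrees of freedom were 16, at a common biological variation of 5.26% (coefficient). CPM are counts relative to the TMM-scaled library size. Log2(A/B) of CPM plus 0.5 was fitted with limma 3.58.1 (trend on the level of the lower copy, robust), adjusted over 689 pairs with both copies at a mean of at least 1 CPM, out of 753: the 29 pairs and 724 other pairs of reciprocal best BLASTP hits (BLAST 2.17.0, E-value 1e-20). Proteins were translated from the RefSeq coding sequences of R64, where a protein table had been planned. Gene models hold no untranslated regions, so lengths are coding lengths. Both fits were tested on simulated data. No overlap of the 58 genes with another RefSeq coding gene was found, and dubious reading frames in the count table were not checked.

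The 58 genes and the other lists were chosen with earlier results of these data known. The genes named are the 6 lowest and 6 highest changes of each comparison, the pairs whose ratio passed in order of size, the most unequal and most equal pairs, RPL8 and RPL22, and list genes that passed; further members are named as examples. Alternatives were RLE factors, no filter, DESeq2 1.42.0, fits of the groups compared, a replicate block, each library left out, leaving out the 4 libraries numbered apart, a minimum change of 0.32 on the log2 scale, other pseudocounts and levels, and pairs under 95% identical. Same-numbered libraries deviated together in all 3 pairs (r above 0.1 across genes) in npl3-F162Y against NPL3 at 37 °C alone, with r from 0.21 to 0.55. In npl3-P196D-A197D and npl3-F245I against NPL3 at 37 °C, 2 of the 3 pairs did, and in heat within a strain at most 2. The 4 replicate 2 libraries at 37 °C, those numbered apart, deviated together in every pair of strains, with r from 0.34 to 0.55. The labels do not say that a number marks a shared day or culture.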

Additional observations from a re-analysis of the deposited data

Results flagged for a closer look

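The heat response of a mutant differed from that of NPL3 by the interaction test, and by at least 0.32 on the log2 scale, for the following genes and ratios. Values are log2 differences, heat response of the mutant minus that of NPL3, and the NPL3 libraries are shared by all of them. In npl3-F162Y the difference was 0.45 for RPL8A, 0.41 for RPL7B and 0.40 for RPL22B. In npl3-P196D-A197D it was 0.34 for RPL18B. In npl3-F245I it was -0.49 for RPL9A, -0.40 for RPL12B, -0.35 for RPL6B, -0.33 for RPL37B and 0.34 for RPL15B. The share of all genes that meet the rule with its minimum size was not computed, so these genes are not set against a background.

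For the ratio of A to B, 4, 0 and 4 of 29 pairs met this rule in npl3-F162Y, npl3-P196D-A197D and npl3-F245I. Of all paralogue pairs 22.2%, 12.5% and 26% met it, a larger share in each mutant. The list therefore says nothing particular of the 29 pairs. In npl3-F162Y the difference in ratio was 0.49 in RPL8, -0.46 in RPL7, -0.39 in RPL22 and -0.33 in RPL9. In npl3-F245I the ratio of RPL9 differed by -0.62, that of RPL15 by -0.52, that of RPL22 by -0.49 and that of RPL7 by -0.32. In each of these ratios the shift was towards the copy that was lower in NPL3 at 30 °C, a direction that was not counted over other paralogue pairs. The libraries that set the lower copy also enter these differences. The split of counts between the RPL7 copies is uncertain. Replicate 1 of NPL3 at 37 °C enters every value, and its share of counts from the 58 genes was 4.41%, against 3.83% and 4.01% in the other replicates. Without it the values for genes were 0.56, 0.51 and 0.52 for RPL8A, RPL7B and RPL22B in npl3-F162Y, 0.42 for RPL18B in npl3-P196D-A197D, and -0.41, -0.34, -0.31, -0.25 and 0.33 for RPL9A, RPL12B, RPL6B, RPL37B and RPL15B in npl3-F245I, of which RPL6B and RPL37B did not pass. The ratios were then 0.53, -0.51, -0.44 and -0.29 for RPL8, RPL7, RPL22 and RPL9 in npl3-F162Y and -0.57, -0.44, -0.55 and -0.37 for RPL9, RPL15, RPL22 and RPL7 in npl3-F245I, all of which passed. RPL6B in npl3-F245I was -0.20 without NPL3 replicate 1 at 30 °C, which passed but lies under the minimum size. It did not pass without npl3-F245I replicate 3 at 30 °C (-0.33), and RPL37B did not pass without NPL3 replicate 2 at 30 °C (-0.29) or npl3-F245I replicate 2 at 37 °C (-0.26).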

How the results depend on the processing

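Between 1 mutant and NPL3, or between temperatures, the number of the 58 genes that passed stayed within 1.5 times of the reported number under RLE factors, no filter and DESeq2. At a minimum log2 change of 0.32 it was 28 in npl3-P196D-A197D and 31 in npl3-F245I at 30 °C and 13 in npl3-P196D-A197D at 37 °C, and 3, 1 and 5 for the interactions of npl3-F162Y, npl3-P196D-A197D and npl3-F245I. With a fit of only the groups compared, 36 passed in npl3-P196D-A197D at 37 °C, and 1 and 17 for the interactions of npl3-P196D-A197D and npl3-F245I. With the number series as a term, added after the data were seen, the interaction of npl3-F162Y had 10.

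Leaving out 1 library in turn gave 5 to 20, 1 to 9 and 20 to 38 genes for the 3 interactions and 48 to 55 for npl3-P196D-A197D at 37 °C. The ratio changed in 7 to 12 pairs for the interaction of npl3-F245I. Over 20 pairs under 95% identical, it changed in 6 and 7 pairs in npl3-F162Y and npl3-P196D-A197D at 37 °C, in 15 and 14 in heat in NPL3 and npl3-F245I, and in 6, 3 and 7 for the interactions; fewer pairs were tested there. In heat the lower copy gained in all of the 6 most unequal pairs in every setting run, of which the restriction to pairs under 95% identical kept 3, with RPL8 among those left out.

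The NPL3 transcript in heat in npl3-P196D-A197D changed by -0.14 without the filter and no longer passed, and by -0.18 to -0.085 with 1 library left out. In heat in npl3-F162Y it changed by -0.17 and passed without the 4 libraries numbered apart, and by -0.17 to -0.031 with 1 library left out. At 30 °C in npl3-F245I it was 0.10 and passed with only the groups compared. The cause was not tested.

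Values near 0 that did not pass changed sign. RPL8A in heat in npl3-F162Y was -0.0037 with RLE factors and with DESeq2 and -0.0082 with scaling from other than ribosomal protein genes. RPL22B in the same comparison was 0.0096 without the 4 libraries, 0.0037 with the series term and 0.0097 without npl3-F162Y replicate 2. RPL15B was 0.014 in npl3-P196D-A197D at 30 °C and 0.0089 in heat in NPL3 without NPL3 replicate 3, and -0.012 in npl3-F162Y at 37 °C without its replicate 3. Without NPL3 replicate 1 at 37 °C, RPL7B was 0.029 in npl3-P196D-A197D at 37 °C and RPL9B -0.0046 in heat in NPL3.

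With the replicate block, the interactions had 6, 2 and 30 genes and no count moved by over 1.5 times. Scaling from other genes moved the median of all genes by under 0.1. With 1 library left out in turn, RPL7B in npl3-P196D-A197D at 37 °C ran from -0.11 to 0.029, RPL9B in heat in NPL3 from -0.0046 to 0.056, RPL15B in heat in NPL3 from -0.10 to 0.0089 and in npl3-P196D-A197D at 30 °C from -0.096 to 0.014, and RPL22B in heat in npl3-F162Y from -0.12 to 0.0097. With 3 libraries a group, an exact permutation test cannot go below p = 0.1.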
